A study of Homo sapiens with 36 samples.

Results

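The regions described here are those that the authors listed as differing in N6-methyladenosine (m6A) between cells carrying RBM33 shRNA-2 and cells carrying a scramble shRNA. All rows of 2 deposited tables were taken: 3268 rows of a table of differential peaks, of 37709 rows in the 4 such tables of the series, and 18 rows with values in a table of methylated shares, of 941. The cells were labelled UM-SCC-1, an established line of human head and neck squamous cell carcinoma. They were infected with retrovirus and selected for 4 days in blasticidin at 10 ug/mL, and both groups went through this infection and selection. The controls carried the RBM33 scramble shRNA and the other group RBM33 shRNA-2. The sample titles name shRNAs while the treatment text names siRNAs. There were 3 m6A-seq and 3 RNA-seq libraries in each group. Nothing in the labels says that replicates came from separate cultures, so p-values measure the spread between these libraries, which may be technical.

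m6A is a methyl mark on adenosines of messenger RNA, placed by a complex around METTL3 and METTL14, removed by the demethylases FTO and ALKBH5, and bound by reader proteins of the YTH family and others. It is commonly found near stop codons, in long internal exons and in 3′ untranslated regions, and bears on the splicing, decay and translation of the RNA. RBM33 is an RNA-binding protein described as a partner of ALKBH5. In m6A-seq, fragmented RNA is enriched with an antibody to the mark and each region is read against the input RNA.

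RBM33 RNA itself was at 217.1, 207.2 and 227.1 CPM (reads scaled to the size of the library) with scramble. Under the label RBM33 shRNA-2 the 3 values were 207.7, 199.3 and 214.4 CPM. These groups overlapped, with a log2 difference of -0.07 (SE 0.07, limma adjusted p = 0.557), so the RNA level of the target does not check the label. Directions below are therefore those of the libraries labelled RBM33 shRNA-2. Depth in listed genes was between 6157074 and 6495793 reads in the scramble libraries and between 4493849 and 5215316 reads in the shRNA-2 libraries. Of 10 squamous epithelial markers, DSP was at 170.0 to 207.3 CPM, while CDH1, EPCAM and ITGB4 reached at most 4.2 CPM and the other 6, including KRT5, KRT14 and TP63, were not analysed here. Of markers of other cell types, COL1A1 was at 16.6 to 21.0 CPM and COL3A1 at 7.05 to 13.2 CPM, and COL3A1 fell (log2 difference -0.65, limma adjusted p = 0.0288), a call lost without scramble replicate 1 or 2 or shRNA-2 replicate 2 or 3 (adjusted p up to 0.100). The other fibroblast, leukocyte and endothelial markers with values stayed at or under 4.30 CPM. Among the squamous markers with values only DSP was well above 4.2 CPM, so these markers do not bear out the squamous label of the cells. The part of these markers in the results was not tested.

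Some listed peaks reach into the window from 250 bases before to 50 bases after a RefSeq transcript start of their own gene, and those bases can be read from RefSeq (GRCh38.p14). Among those considered here were 50 such peaks, 45 higher and 5 lower with shRNA-2. The 5 highest and 2 lowest with at least 30 bases in the window are shown, since they carry the strongest listed differences at gene starts. Each line is a stretch of 30 bases of the peak, written in the direction of the transcript. Some stretches lie wholly before the RefSeq start used. Relative to that start they run from -79 to -50 (BCL2L13), -249 to -220 (FAM53C), -99 to -70 (AMH) and -58 to -29 (CORT). Whether those bases are transcribed was not tested. Capitals mark the AAC or GAC nearest the middle of the peak's bases in the window, the core letters of the m6A consensus, and a line without capitals held neither.

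PGK1: gcggtgttccgcattctgcaagcctccgga
BCL2L13: tgctgtgattctccctgagtcatccttgct
FAM53C: tttctgcgatattttggagggggtGACtcg
AMH: ctgtcccccaaggtcgcggcagaggagata
ZNF276: cgcgccgagcggagcctAACgccgggtcct
MTCP1: cccgggcgcctgggcaggcgcctcccgagt
CORT: aaggggttacatccAACcccagagcgcttt

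These stretches lie at chrX:78104243-78104272 (plus strand, PGK1), chr22:17706702-17706731 (plus, BCL2L13), chr5:138338017-138338046 (plus, FAM53C), chr19:2249224-2249253 (plus, AMH), chr16:89721555-89721584 (plus, ZNF276), chrX:155071090-155071119 (minus, MTCP1) and chr1:10449973-10450002 (plus, CORT). The authors' deposited table gives m6A effects, on a natural log scale with positive values higher in shRNA-2, of 8.73 for PGK1, 3.73 for BCL2L13, 2.58 for FAM53C, 2.28 for AMH and 2.12 for ZNF276, and of -1.44 for MTCP1 and -1.68 for CORT. Of 22 pieces of 50 bases that lay wholly in a window, 11 (50%) held AAC or GAC on the transcript strand and 15 (68.2%) on the other strand. Among 210696 pieces of the same length from 35116 RefSeq windows, 66.4% and 67.5% held them. The 2 motifs cannot overlap each other, and a match or its absence says nothing beyond the letters of these stretches.

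Peaks higher in the shRNA-2 libraries made up 2860 of the 3268 rows (87.5%) and peaks lower made up 408. The table holds only peaks that the authors listed as differing, with absolute effects of at least 0.5 and p up to 0.00108 in the authors' deposited table, so these counts are a split of called peaks and not a test. The higher peaks also had the larger effects, with a median of 1.07 (a 2.91-fold difference) against an absolute median of 0.87 (2.40-fold) for the lower ones. Effects of 2 or more were listed for 305 higher and 6 lower peaks. The table gives no read counts, so the depth behind each effect is unknown. Of the 311 effects of 2 or more, 38.9% were the natural log of a multiple of 0.5 (the doubled fold within 1e-06 of a whole number), against 4.60% of smaller effects. In the series' other 3 tables the share of higher peaks was 87.6% of 2070 rows for RBM33 shRNA-1, 64.7% of 13120 for ALKBH5 shRNA-1 and 72.5% of 19251 for ALKBH5 shRNA-2.

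Most listed peaks were narrow and in protein-coding genes. In all, 3061 peaks (93.7%) covered 50 bases, the bin of the table, and 556 (17%) were split into blocks with a gap between them. Of the split peaks 94.4% were higher, against 86.1% of the peaks in 1 block. Protein-coding genes held 3116 peaks (95.4%), of which 87.9% were higher. The 81 peaks in long noncoding RNAs were higher in 72.8% of cases. XIST, the RNA that coats an inactive X chromosome, had the most of these, 10 peaks, all higher (effects 0.50 to 2.30). CCDC183-AS1 had 7 peaks, all higher (effects 1.85 to 3.16), and NEAT1, the scaffold RNA of nuclear paraspeckles, had 2 higher peaks (1.32 and 3.01). MZF1-AS1 had 3 peaks, EMX2OS 2, LIPE-AS1 2 and FLJ37453 2, and all of these were lower. Reads of an antisense gene are separable from its partner only where strand was used in counting, which the sources used here do not state for the peaks.

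By position, the listed peaks lay toward the 3′ end of genes. Of 3205 peaks inside the span of their gene, 1032 (32.2%) lay in the last 10% of the span and 348 (10.9%) in the first 10%. The last 10% held 31.7% of the higher and 35.8% of the lower peaks, and the first 10% held 11.3% and 7.87%. Within 500 bases of the gene's 3′ end there were 276 peaks and within 500 bases of its 5′ end 231. Spans include introns, and exons were not used here.

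**Figure D1:**
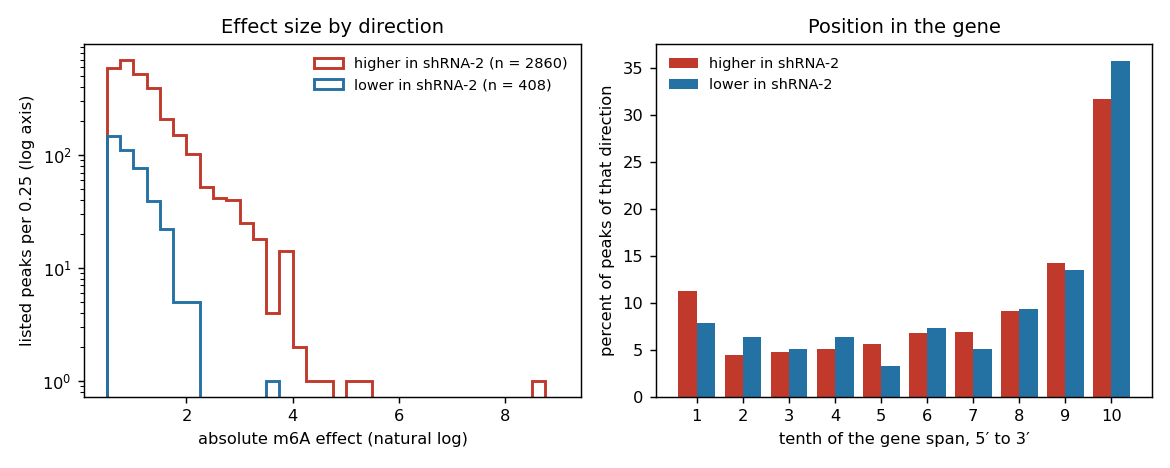
Left, number of listed peaks (log axis, bins of 0.25) by absolute m6A effect on the natural log scale; right, percent of the higher and of the lower peaks in each 10% of the gene span. The 2860 higher peaks reach an effect of 8.73 and the 408 lower peaks an absolute effect of 3.59, and both directions are most frequent in the last 10% (31.7% and 35.8%).

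Genes with more RNA held more listed peaks, and a larger share of them higher. The genes tested were put in 4 groups of equal size by mean CPM. In the lowest group, 0.90% held a peak, and 75% of the 48 peaks were higher. In the next 2 groups 6.80% and 15.8% of genes held one, with 74.6% and 83.5% of peaks higher. In the highest group 24.5% of genes held one, with 93.2% of 1812 peaks higher. The median effect of the higher peaks went the other way, from 1.49 in the lowest group to 0.97 in the highest.

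The 3268 rows named 2219 genes, of which 1852 had only higher peaks, 317 only lower peaks and 50 both. A single peak was listed for 1608 names (72.5%), and 91 names had 4 or more. In all, 847 peaks (25.9%) lay within 1000 bases of another listed peak of the same gene, so peaks of 1 gene are not independent. The share of tested genes with a peak ran from 17.1% on chromosome 19 (201 genes) and chromosome 22 (76 genes) to 8.77% on chromosome 13 (30 genes).

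KMT2D, which encodes a histone H3 lysine 4 methyltransferase, had the most peaks: 17, all higher, with a median effect of 2.03. They lay between chr12:49039464-49039513 and chr12:49053311-49053514 on the minus strand, that is in the middle and 5′ part of the gene's span and not at its 3′ end. The highest, 3.69 (p = 5.08e-06 in the authors' deposited table), was split into 2 blocks, and the lowest was 0.89. DIDO1, a chromatin reader of H3K4 methylation, had 12 peaks. Its 11 higher peaks (0.57 to 2.35) lay in the last 10% of the span, between 1528 and 4128 bases from the 3′ end, and the 1 lower peak (-1.15) lay near the middle of the span, 27413 bases from that end. ATN1, a transcriptional corepressor, had 11 higher peaks (0.54 to 1.72). SRCAP, the ATPase of a complex that exchanges histone H2A.Z, had 10 higher peaks (0.52 to 2.56), as many as XIST.

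The highest effect was at the start of PGK1, which encodes the glycolytic enzyme phosphoglycerate kinase. The peak, chrX:78104219-78104318, begins 29 bases before the RefSeq start at 78104248. The span of PGK1 in the gene table begins far earlier, and there the peak lies 193480 bases from the 5′ end. The counts by position therefore place it at 88.5% of the span. The peak had an effect of 8.73 (p = 1.26e-12) in the authors' deposited table. The tables of the other shRNAs list the same place at 8.60 (RBM33 shRNA-1, against the same scramble libraries), 5.99 (ALKBH5 shRNA-1) and 6.37 (ALKBH5 shRNA-2). PGK1 RNA was at 284.6, 292.9 and 317 CPM with scramble and at 366.5, 361.4 and 354.1 CPM with shRNA-2. The groups did not overlap, and the log2 rise of PGK1 RNA was 0.27 (SE 0.07; limma adjusted p = 0.00701). In the authors' deposited DESeq2 table it was 0.73. No source used here gives the sequence of the retroviral vector, so reads of the gene and of any vector copy of these bases cannot be told apart.

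Several of the next highest effects lay at the ends of genes. PIGQ, of the enzyme that starts glycosylphosphatidylinositol anchor synthesis, had its highest of 4 peaks at chr16:584052-584136 (5.40, p = 3.01e-09 in the authors' deposited table), reaching 27 bases past the gene's end in the gene table. SF3A2, a subunit of the U2 spliceosome particle, had 6 higher peaks, 4 of them with effects of 1.83 to 5.12 within 526 bases of its 3′ end. The highest, chr19:2248630-2248679, reached 24 bases past that end. AMH, which encodes anti-Müllerian hormone, lies next on the same strand, and its first listed peak, chr19:2249214-2249263, ends before the gene begins. Its other 2 peaks (1.38 and 1.42) lie within its first 10%. AMH RNA was at 4.85, 2.75 and 4.77 CPM with scramble and at 52.5, 55.5 and 63.3 CPM with shRNA-2, with no overlap. It rose by 3.53 (SE 0.17, limma adjusted p = 2.96e-13), while SF3A2 RNA, at 106.8, 101.9 and 109.7 CPM against 136.1, 111.1 and 121.9 CPM, differed by 0.21 (SE 0.11, adjusted p = 0.213). Transcripts that run on from SF3A2 and transcripts that start at AMH cannot be told apart in these tables.

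**Figure D2:**
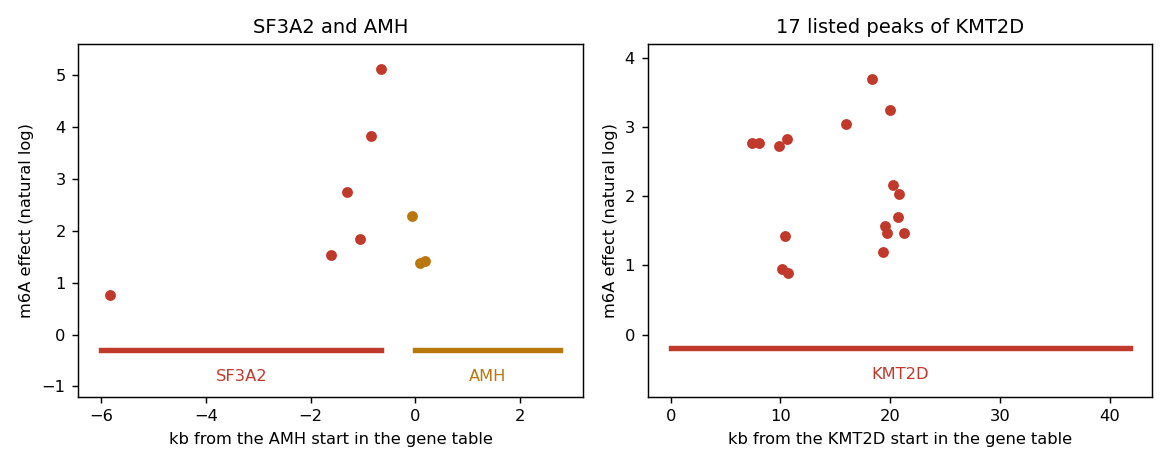
Effect of each listed peak (natural log scale, points at the peak's middle) by distance in kb, for SF3A2 and AMH (left, from the AMH start) and for KMT2D (right, from its start); horizontal bars are gene spans. The SF3A2 effects reach 5.12 at the end of the gene, just before the 3 AMH peaks of 1.38 to 2.28, and the 17 KMT2D peaks leave the last part of the span empty.

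Other high effects lay in genes with 1 or 2 listed peaks. HSP90AB1, a cytosolic chaperone, had one at 4.55 (p = 6.14e-08 in the authors' deposited table) and LAMB1, a laminin chain of basement membranes, one at 4.04 (p = 1.44e-05), split into 2 blocks. DDX12P, a helicase pseudogene, had 4.28 at a peak that reached 323 bases past its end, beside another of 0.68, and ZBTB45, a zinc finger protein gene, 4.25. NPIPB6, of a family of near-identical genes, had 3.99, and reads of its copies may be split. DDX12P likewise has close copies, so both are uncertain. The listed folds at HSP90AB1 (95), DDX12P (72), ZBTB45 (70), LAMB1 (57) and NPIPB6 (54) are whole numbers. So are those of the highest PIGQ (222) and SF3A2 (167) peaks. Without read counts, the depth behind these effects is unknown.

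The lowest effects in genes of at least 1 CPM were smaller. RIN2, a regulator of RAB5, had peaks at -2.20 (p = 1.63e-05 in the authors' deposited table) and -1.03. DLL4, a Notch ligand, had a peak at -2.15. TBX3, a T-box transcription factor, had a peak at -2.13 (chr12:114671787-114671836) and a higher one at 1.11 on its 5′ side. ASAP3, a GTPase-activating protein for ARF, followed at -2.08, HIVEP3, a zinc finger protein gene, at -2.05, MBD5, a methyl-CpG-binding domain protein gene, at -1.89 and CYB5D2, of a heme-binding protein, at -1.86. SLC10A5, a member of a bile acid transporter family, had -1.95. DLL4 RNA did not exceed 6.79 CPM in any library of these groups and SLC10A5 RNA did not exceed 3.42 CPM.

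The smallest p among all rows belonged to a lower peak. In ANKRD11, a chromatin regulator that binds histone deacetylases, the split peak chr16:89286860-89288623 had an effect of -1.69 (p = 1.01e-23 in the authors' deposited table), beside 2 higher peaks of 0.91 and 0.68 about 6 kb downstream. The other tables list it at -1.60 (RBM33 shRNA-1), -1.09 (ALKBH5 shRNA-1) and -1.55 (ALKBH5 shRNA-2). INF2, a formin that shapes actin filaments, had a lower peak of -1.55 (p = 2.19e-15 in the authors' deposited table) and 3 higher peaks of 1.31 to 2.29 downstream. IP6K2, an inositol hexakisphosphate kinase, had a lower peak of -1.03 and 3 higher peaks downstream. NSD1, a histone H3 lysine 36 methyltransferase, had a lower peak of -0.96 about 2.6 kb from its 5′ end and a higher one of 1.03 much further along. In 29 of 49 genes with both directions and usable positions, the lower peaks lay nearer the 5′ end than the higher ones, and in 20 nearer the 3′ end. GPR107, a membrane protein gene, had a single lower peak of -0.77.

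Among higher peaks with the smallest p, LARP1, an RNA-binding regulator of ribosomal protein mRNAs, had 8, with 2.94 (p = 7.01e-15 in the authors' deposited table) close to its 3′ end. CBS, the first enzyme of transsulfuration, had 4 rows of 0.91 to 1.21. Of these, 2 lie at chr21:6445475-6450530 and 2 in the gene itself near chr21:43053769-43058924. The first place is a near-identical copy, so the reads may be shared and the rows are not independent.

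The second table gives each interval a fraction for each group, called its methylated share here. How that fraction relates to the percent of RNA molecules carrying the mark was not tested, so it is not read as such. Of 18 intervals, 15 were higher with shRNA-2 and 3 lower, and 6 had an adjusted p below 0.05 in the authors' deposited table, whose rows reach 0.0994. The median share was 53.9% with scramble and 66.3% with shRNA-2, and the median difference was 19.1 points. The 8 differences of 20 points or more were all higher. The table has no value per library, so no spread can be given.

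PGK1 led this table too, from 2.03% to 61.7% (adjusted p = 3.03e-28) over 50 bases of the peak described above. SPIN1, a reader of histone methylation, went from 11.7% to 63.0% (0.0191). ATP5F1D, the delta subunit of ATP synthase, went from 56.7% to 78.1% (0.000113). HES4, a transcriptional repressor of the Notch pathway, went from 66.6% to 83.5% (0.00263). H1-10, a linker histone, went from 81.0% to 93.6% (0.0191). The interval of DRAP1, a subunit of a general transcription repressor, went the other way, from 80.1% to 62.2% (1.02e-06).

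The remaining rows had adjusted p between 0.0620 and 0.0994. AMH went from 50.1% to 93.3%, ADGRL1, an adhesion receptor gene, from 41.2% to 82.3% and TOMM40, the mitochondrial import channel, from 23.2% to 63.8%. DNAJC2, a ribosome-associated chaperone, went from 8.15% to 42.3% and MTA1, a subunit of a chromatin deacetylase complex, from 34.8% to 66.7%. ATF4, the transcription factor of the integrated stress response, went from 22.2% to 41.6%, and 2 rows of the effect table (0.82 and 0.78) cover the same interval. TRABD went from 75.5% to 94.4%, BSG from 53.3% to 65.9%, ARIH1 from 83.0% to 88.4% and SLC1A5 from 83.0% to 88.3%. The linker histone H1-4 went down from 68.9% to 61.6% and the nucleolar GNL3 from 54.5% to 34.8%, and GNL3 has 2 lower rows in the effect table (-0.65 and -0.70). The intervals of ARIH1, ATP5F1D, HES4 and TRABD also overlap a higher row of the effect table. No row of that table overlaps the intervals of SPIN1, H1-10 and DRAP1, which had an adjusted p below 0.05. The same holds for ADGRL1, AMH, BSG, DNAJC2, H1-4, MTA1, SLC1A5 and TOMM40. Both tables come from the same libraries, so they are not independent of each other.

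**Figure D3:**
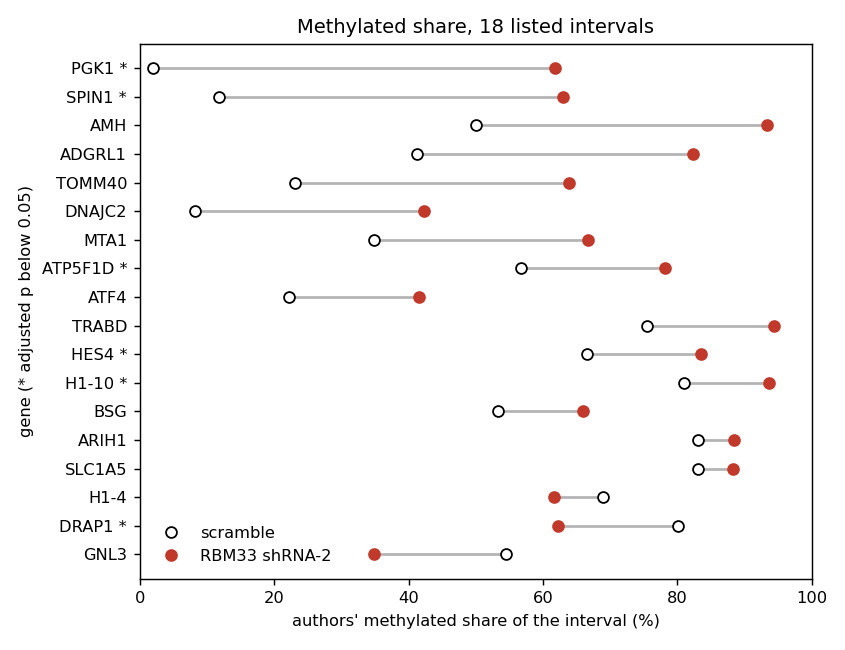
Methylated share (percent) of the 18 intervals in scramble (open circles) and RBM33 shRNA-2 (filled circles), from the authors' deposited table and ordered by the difference; an asterisk marks an adjusted p below 0.05. PGK1 moves from 2.03% to 61.7%, and GNL3, DRAP1 and H1-4 are the 3 intervals lower with shRNA-2.

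RNA levels were then set beside the peaks. Over all 18227 genes tested with limma, 6.44% rose and 7.27% fell in the shRNA-2 libraries, and 12.0% of those genes held a listed peak. Of the 2186 host genes tested, 273 rose (12.5%) and 290 fell (13.3%), with a median log2 difference of -0.03 against -0.02 over all genes. Genes with only higher peaks (1829) rose in 220 cases (12.0%) and fell in 277 (15.1%), with a median of -0.05. Genes with only lower peaks (307) rose in 41 cases (13.4%) and fell in 11 (3.58%), with a median of 0.10. Genes with both (50) rose in 12 cases and fell in 2. The m6A effect is set against the same input libraries as the RNA values, so the directions of the 2 measures are not independent. Host genes also had more RNA (median 47.5 against 15.8 CPM over all genes) and a longer annotated length (6058 against 4474 bases). With a trend on gene length removed from each library, an alternative added after the data were seen, 217 host genes rose and 306 fell. Genes with only higher peaks then rose in 173 cases and fell in 290, and genes with only lower peaks rose in 36 and fell in 14. The part of the RNA level in the counts was not tested. In bulk RNA, fewer cells of a type and less RNA per cell cannot be told apart.

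**Figure D4:**
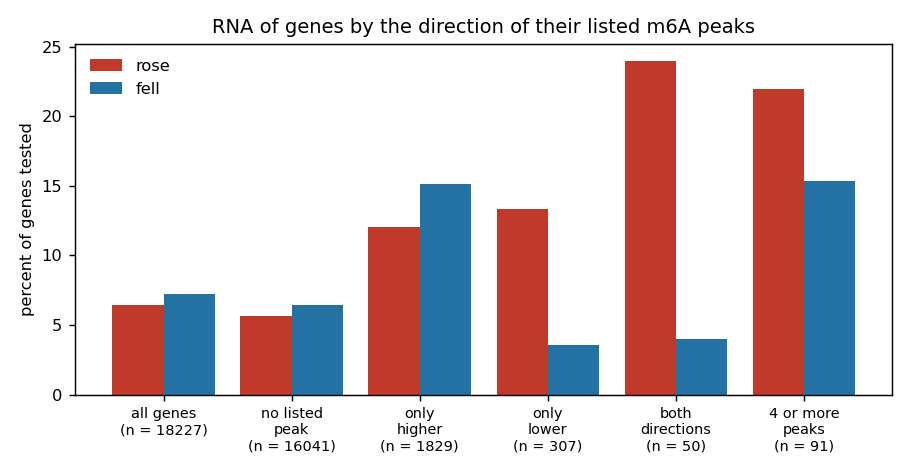
Percent of tested genes whose RNA rose or fell (limma adjusted p below 0.05), for all genes and for genes grouped by their listed peaks. Genes with only lower peaks rose in 13.4% and fell in 3.58% of cases, while genes with only higher peaks rose in 12.0% and fell in 15.1%.

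The genes with the most peaks were among those whose RNA rose. KMT2D RNA was at 151.8, 152.2 and 147.2 CPM with scramble and at 308.9, 302.3 and 326.1 CPM with shRNA-2, a rise of 1.05 (SE 0.08, limma adjusted p = 1.35e-09). DIDO1 RNA was at 70.2, 70.0 and 68.8 CPM against 117.6, 137.4 and 133.5 CPM, a rise of 0.88 (SE 0.09). ATN1 rose by 0.88 (SE 0.12) and SRCAP by 0.66 (SE 0.08). The groups did not overlap for any of these 4 genes. Of the 91 host genes with 4 or more peaks, 20 rose (22.0%) and 14 fell (15.4%), against 12.5% and 13.3% of all host genes.

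Among host genes, AMH had the largest rise, followed by HSPA1A at 3.49 (SE 0.09, limma adjusted p = 1.38e-18). HSPA1A encodes an inducible heat shock protein, and with its near-identical copy HSPA1B the reads may be split. Its RNA stood at 41.4, 37.7 and 35.1 CPM in scramble and at 452.4, 417.6 and 443.6 CPM with shRNA-2. HSPA6, another inducible heat shock gene, rose by 2.18 (SE 0.31) from a low level, at 1.29, 0.49 and 0 CPM against 5.28, 6.84 and 5.47 CPM. The size of the HSPA6 rise depends on the pseudocount and tool, with 3.77 at a pseudocount of 0.1 and 3.30 in DESeq2 on recovered reads. FBXL19-AS1, an antisense RNA, rose by 1.89 (SE 0.27) and FOS, an AP-1 transcription factor, by 1.77 (SE 0.32). The largest fall was in CDH12, a cadherin, at 7.92, 7.60 and 7.49 CPM against 2.20, 1.495 and 1.56 CPM (-1.67, SE 0.31). BTBD2 fell by 1.34 (SE 0.13), SCRN2 by 1.33 (SE 0.22), TST, a mitochondrial sulfurtransferase, by 1.29 (SE 0.26) and MFSD3, a membrane transporter family member, by 1.21 (SE 0.26). All 10 of these genes had only higher peaks, as did 1829 of the 2186 host genes tested. Their groups did not overlap, which their choice by large RNA changes favours.

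**Figure D5:**
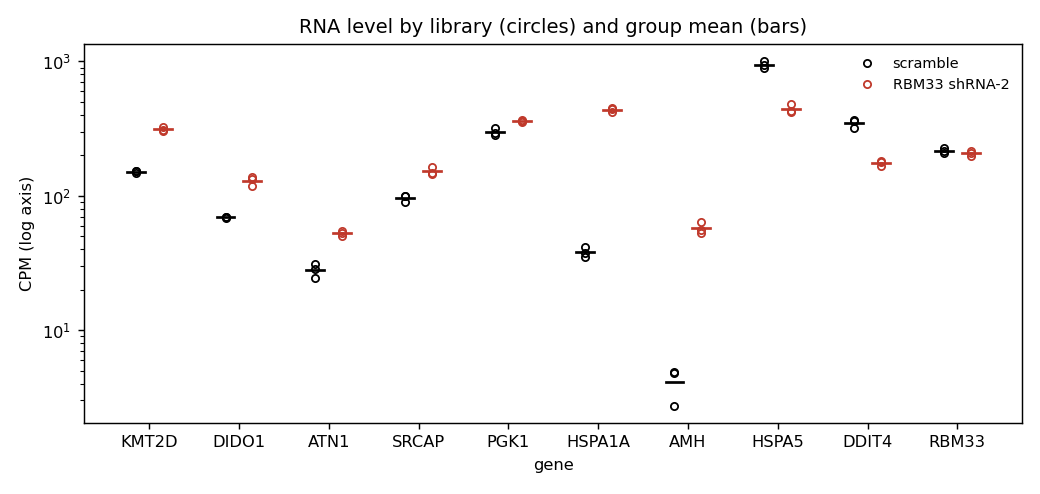
RNA level (CPM, log axis) of 10 named host genes in each library (circles) with the mean of each group (bars). KMT2D, DIDO1, ATN1, SRCAP, PGK1, HSPA1A and AMH are higher in every shRNA-2 library, HSPA5 and DDIT4 lower, and RBM33 overlaps.

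Gene lists were read against the 12.0% of all tested genes that held a peak and the 24.5% of those with the most RNA. Where given, their RNA counts stand beside the 6.44% of all tested genes that rose and the 7.27% that fell. Of 28 genes tested in the list named H3K4 and H3K27 chromatin enzymes, 16 (57.1%) held a peak, with 47 higher and 3 lower. The list is broader than its name and includes NSD1, described above as acting on another histone lysine. In RNA 13 of the 28 rose and none fell, with a median of 0.25. With the gene length trend removed 10 rose and 2 fell, with a median of 0.16. KMT2B had 7 higher peaks (0.65 to 3.04) and its RNA rose by 0.73 (SE 0.10). ASH1L had 2 higher peaks, one of 3.28, and a lower peak of -0.61, and its RNA rose by 0.34 (SE 0.07). KMT2A had peaks at 2.17 and 2.37 and its RNA rose by 0.51 (SE 0.06). With the gene length trend removed the rises of ASH1L and KMT2A were 0.22 (limma adjusted p = 0.0476) and 0.24 (limma adjusted p = 0.0333).

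Of 38 SR and hnRNP splicing factors, 18 (47.4%) held a peak, with 32 higher and 1 lower, and in RNA 17 rose and 1 fell. HNRNPA3 had peaks at 1.87 and 0.91, SRSF6 at 1.71 and SRSF3 at 1.68, 1.13 and 1.05. Their RNA rose by 0.40 (SE 0.06), 0.60 (SE 0.09) and 0.26 (SE 0.08). The SRSF3 call was lost without scramble replicate 2 or 3 or shRNA-2 replicate 3 (limma adjusted p up to 0.102). SRRM2, a scaffold of nuclear speckles, had 8 higher peaks and a lower peak of -1.70.

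Of 40 genes in the ATF4 and endoplasmic reticulum stress list 15 held a peak, and all 34 of those peaks were higher. In RNA 1 of the 40 rose and 21 fell, with a median of -0.32. Of the 15 genes with a peak 6 fell and 1 rose, and of the 25 without one 15 fell. HSPA5, the main chaperone of the endoplasmic reticulum, had 3 higher peaks (1.54, 0.90 and 0.84). Its RNA was at 935.9, 886.1 and 1004 CPM with scramble and at 484.7, 419.8 and 424.8 CPM with shRNA-2, and it fell by 1.09 (SE 0.07, limma adjusted p = 2.34e-10). The amino acid transporter genes SLC7A5, with 8 higher peaks, and SLC7A1, with 6, differed in RNA by 0.02 (SE 0.08, adjusted p = 0.91) and 0.08 (SE 0.07, adjusted p = 0.474). The stress-sensor gene SESN2 had a peak at 1.22. DDIT4, an inhibitor of mTORC1 signalling from the mTORC1 list, had a higher peak of 0.55, and its RNA fell by 0.99 (SE 0.07), from 361.4, 368.6 and 320.9 CPM to 177.6, 181.8 and 168 CPM.

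In the heat shock list 7 of 24 genes held a peak, all 8 peaks were higher, and in RNA 13 rose and 2 fell. Besides HSP90AB1, HSPA6 and HSPA1A, HSF1, the transcription factor of the heat shock response, had a peak at 1.76. HSP90AB1 RNA rose by 0.26 (SE 0.09, limma adjusted p = 0.0412), a call lost with any library but shRNA-2 replicate 2 left out (adjusted p up to 0.226). Among immediate early genes 8 of 26 held a peak, with 10 higher and 1 lower, and in RNA 6 rose and 2 fell. FOS led with 2.86, then NR4A1, a nuclear receptor, with 2.00 and JUND with 1.72. KLF6 had 1.41.

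Of 31 genes of the m6A machinery 5 held a peak, all 7 of them higher. They were the reader IGF2BP1 (1.17), RBM33 itself (0.65, 0.78 and 1.02), the reader YTHDF1 (0.99), FTO (0.95) and ALKBH5 (0.52). In RNA 7 of the 31 rose and 1 fell, and YTHDF1 was the one that fell (-0.46, SE 0.11). ALKBH5 RNA was at 118.5, 117.9 and 113.8 CPM with scramble and at 108.4, 112.4 and 118.8 CPM with shRNA-2, an overlap (log2 difference -0.04, SE 0.09, limma adjusted p = 0.784).

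Among signalling lists, Notch, Wnt and TGF-beta genes held peaks in 12 of 35 cases, all 18 higher, and in RNA 4 rose and 2 fell. CTNNB1, the beta-catenin gene, had 2.69, 1.51 and 0.56, LRP6, a Wnt co-receptor, reached 1.97, RNF43, a ligase that removes Wnt receptors, had 1.61 and ACVR1B, an activin receptor, 1.49. In the EGFR, MAPK and PI3K list 9 of 32 held a peak, 13 higher and 1 lower, with NRAS at 2.62 and 1.26, MAPK3 at 1.30 and 0.67 and PIK3R2 at 1.29. In RNA 4 of the 32 rose and 5 fell, and MAPK3 was among those that fell (-0.60, SE 0.11). In the mTORC1 list 9 of 40 held a peak, all 14 higher, and in RNA 6 of the 40 rose and 7 fell. RPTOR, the scaffold of mTORC1, had 4 of the peaks (1.10 to 3.07) and its RNA rose by 0.69 (SE 0.10).

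The squamous and adhesion list held 7 higher and 4 lower peaks in 6 of 22 genes, and in RNA 2 of the 22 rose and 2 fell. DSP, the desmosomal plaque protein, had 3.81. DST, a cytoskeletal linker, had 2.25, 1.85 and -0.69, PLEC, another such linker, 1.42 and -1.03 and AHNAK2 2 lower peaks, -0.92 and -1.45. DSP and AHNAK2 RNA differed by 0.09 (SE 0.09) and -0.02 (SE 0.11) without passing the test.

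In the other lists, too, most peaks were higher, as over all peaks (87.5%). RNA decay genes held 15 higher and 1 lower peak in 10 of 36 genes, with CNOT6, a deadenylase, at 1.72, 1.82 and 1.70, SMG5 reaching 1.77 and CNOT1, the deadenylase scaffold, 1.40. Cell cycle genes held 13 higher peaks in 9 of 37, with BUB1, a spindle checkpoint kinase, at 2.12, MKI67 at 1.26 and CDK4 reaching 1.21. Translation factors held 11 higher peaks in 8 of 31, with PABPC1, the cytoplasmic poly(A)-binding protein, reaching 1.55. The p53 targets held 7 higher peaks in 7 of 26, with AEN, an apoptosis nuclease, at 3.16 and TIGAR at 2.22. YAP and TAZ pathway genes held 6 higher peaks in 6 of 25, with NF2, an upstream regulator, at 1.56. mRNA export genes held 5 in 5 of 25, with the export receptor NXF1 at 1.12. Autophagy genes held 8 higher and 1 lower peak in 6 of 39, with TFE3, a transcription factor of lysosomal genes, at 4 higher peaks (0.83 to 2.77), ATG13 at 1.55 and ATG9A at 1.44.

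The ALKBH5 tables have scramble libraries of their own, so their peaks were set beside these. With an overlap of at least 1 base on the same strand, 390 of the 3268 peaks (11.9%) met a peak of the ALKBH5 shRNA-1 table, which is 3.00% of that table, and 353 of the 390 had the same direction. For ALKBH5 shRNA-2, 832 peaks (25.5%) met one, 4.32% of that table, and 812 had the same direction. Of the 2860 higher peaks 27.2% met an ALKBH5 shRNA-2 peak and of the 408 lower peaks 13.2%. By gene name the overlap was 1574 (70.9%) and 1793 (80.8%) of 2219 names, or 24.8% and 24.3% of the names in the ALKBH5 tables. These shares also depend on the lengths of the lists, and the part of that was not tested.

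RNA of both RBM33 shRNAs was compared directly, which does not use the scramble libraries. No gene passed (0.0% of 18227 called by limma, 994 at an unadjusted p below 0.05). edgeR and DESeq2 on recovered reads also called 0, with 917 and 685 at an unadjusted p below 0.05. This does not show that the shRNAs act alike. For KMT2D the difference, shRNA-2 minus shRNA-1, was -0.05 with a 95% interval from -0.23 to 0.12, for HSPA1A 0.04 (-0.16 to 0.25) and for AMH -0.08 (-0.47 to 0.30).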

How the data were processed

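The authors deposited CPM per gene for 15 RNA-seq libraries in 6 groups as a signal that keeps whole reads. Per the submitters' processing notes, the build was hg38 and the tools included cutadapt 1.18, HISAT2 2.1.0, Subread 1.6.4 and edgeR 3.24.3. Every value came out within 0.1 of a whole read. No source used here names the tool that called the peaks. The authors' deposited peak table gives a log effect, read here as a natural log because 7.86% of its effects are natural logs of multiples of 0.5 (the doubled fold within 1e-06 of a whole number) and 0% are such log2 values, and a p-value. In the share table the authors deposited fractions, their log2 ratio, a score read here as abundance and p-values. Of its 20 rows 2 were not analysed here. The authors' deposited edgeR and DESeq2 tables (log2 fold changes and p-values) were used as alternatives.

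RNA was tested with limma 3.58.1 on log2(CPM + 1) after dropping genes whose mean was under 1 CPM, with Benjamini-Hochberg adjustment at 0.05 over all genes. Fold changes are on that log2(CPM + 1) scale. The fit was tested on simulated data. Alternatives were edgeR 4.0.16 and DESeq2 1.42.0 on recovered reads, other pseudocounts and filters, fewer groups, a replicate block, a gene length trend removed and each library left out. Peaks were matched to genes by symbol, chromosome and strand (3233 of 3268 rows, 140 through RefSeq synonyms). Named genes were those of the share table, the highest and lowest effects, the smallest p-values, the most peaks, the largest RNA changes among host genes, up to 4 per gene list, and RBM33, ALKBH5 and DDIT4. Genes of the start-window stretches and of long noncoding RNAs were chosen after their values were seen. Members and lists were chosen with earlier results of these data known.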

Additional observations from a re-analysis of the deposited data

How the results depend on the processing

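The count of genes called in RNA was 2499 and ran from 1673 to 2105 with 1 library left out; for host genes it was 563, and 409 to 476. With the replicate block the HSP90AB1 call was lost (limma adjusted p = 0.0557), and the count was 2346 for all genes and 524 for host genes. Replicate numbers did not pair the libraries: deviations of same-numbered libraries correlated at -0.020, 0.058 and -0.015. The authors' deposited DESeq2 table called 1684 genes, with 824 rises and 860 falls. Comparing the shRNAs gave 0 calls in every setting run, the replicate block included.

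The share of higher peaks was 91.4% at an absolute effect of at least 1, 85.0% with each gene counted once and 86.1% in single blocks. The share of higher intervals was 100% at differences of 20 points or more. A reciprocal overlap of 0.5 gave 10.3% (ALKBH5 shRNA-1) and 20.9% (ALKBH5 shRNA-2), and gene names gave 70.9% and 80.8%. The cause was not tested, apart from fewer peaks meeting a stricter rule. For RNA of single named genes 54 alternative values lost the call, 14 gained it, 44 turned sign without a call in either, and 1847 kept their direction and their side of the threshold. The fits that leave out 1 shRNA-2 or scramble library keep 2 in that group. The effect table holds no depth, so neither small nor large effects can be weighed by it. The share table holds only the abundance score given above.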
